A study of Homo sapiens with 2 samples.

Results

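The human collagen genes, read here as every gene whose symbol is COL, a number, A and a number, made up 43 of the 32738 genes in a droplet single-cell RNA library of blood cells grown from the human pluripotent stem cell line IPS11. CD34+ cells made from that line were kept for 5 days in endothelial-to-hematopoietic transition culture, in which endothelial-like cells round up and become blood cells, and the nonadherent cells were harvested from 4 plate coatings: uncoated, VCAM1 (an adhesion protein), DLL4 (a Notch ligand) and DLL4+VCAM1. The wells of a coating were pooled, the cells of each coating were marked with 1 hashtag antibody (0252, 0253, 0254 or 0255), and all cells entered 1 library. Which coating a given hashtag stands for is not in the labels, so groups are named by hashtag, each hashtag is 1 pool without a replicate, and no test between them was possible.

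Collagens are the fibers and networks of the extracellular matrix, each built from 3 chains wound around each other. Fibrillar collagens (types I, II, III, V and XI) form the fibers of skin, bone and cartilage, type IV forms the sheet of basement membranes, type VI forms beaded filaments around cells, and types with interrupted helices sit on the surface of fibers or in cell membranes. The chains of 1 molecule often come from several genes, as for type I (COL1A1 and COL1A2) and type IV (COL4A1 and COL4A2), and blood cells are better known for binding and degrading collagen than for making it.

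The matrix held 10836 barcodes, and the same 10836 carried a hashtag call in the second table. A single hashtag, at most 36000 unique molecular identifiers (UMIs, 1 per RNA molecule counted), at most 6000 genes and at most 18% mitochondrial UMIs left 7550 cells with a median of 18319 UMIs. Of the 43 collagen genes, 41 had at least 1 UMI in these cells, 20 had at least 100, and COL5A3 and COL20A1 had 0. Together they held 22435 UMIs. Levels are given as UMIs of a gene per 1e+06 UMIs of the cells summed (CPM), with exact 95% Poisson intervals, and shares of cells with exact 95% Clopper-Pearson intervals, both of which cover counting error only. The kit counts 1 tag near the 3′ end of each molecule, so levels were not divided by gene length, and the tags do not show which transcript form of a gene was present.

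Cells rich in collagen were chosen by at least 20 UMIs of COL1A1, COL1A2 and COL3A1 together, which were 63 of 7550 cells, 0.834% (0.642 to 1.07%). The 3 genes that chose them are given as a description. Most cells were far from this limit: 6657 had 0 UMIs of the 3 genes and 616 had 1. Just outside it, 9 cells had 15 to 19 UMIs, with a median of 77 UMIs of the contractile marker list and 10 of the pan-blood list, and just inside it 9 cells had 20 to 24 UMIs, with medians of 107 and 9. Blood cells were taken as the 7399 cells under that limit with at least 10 UMIs of 6 pan-blood markers (PTPRC, SPN, CD53, LAPTM5, CORO1A and ARHGDIB), and 88 cells were neither. Among collagens with at least 100 UMIs, the variance of UMIs per blood cell over their mean ran from 1.02 (COL9A2) to 4.25 (COL2A1). Where it is high, UMIs gather in some cells, and intervals of levels and ratios are narrower than the spread between cells.

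The collagen-rich cells carried a broad stromal set of genes. Of the 8 contractile markers, 7 were at least 4-fold higher than in blood cells, led by TAGLN at 3692 CPM against 5.31 and by the cardiac actin ACTC1 at 2684 against 3.35. The summed level of the contractile list was 12180 CPM in collagen-rich cells and 222 in blood cells. The pan-blood list stood at 444 against 2006 CPM, with a range of 0 to 28 UMIs and a median of 6 in the collagen-rich cells against a median of 36 in blood cells. In 23 of the 63 cells at least 10 pan-blood UMIs were present, and whether these were mixed droplets was not tested. Of 5 endothelial markers (34.2 against 53.4 CPM together), KDR was at least 4-fold higher (6.13 against 0.47 CPM, on 7 UMIs), TIE1 was at least 4-fold lower, ESAM was at 23.7 against 23.4 CPM, and CDH5 and CLDN5 were at 0 UMIs in the collagen-rich cells. The keratins KRT8, KRT18 and KRT19 were at least 4-fold higher, at 2916, 3837 and 177 CPM against 80.4, 95.1 and 1.82. In contrast, EPCAM was at least 4-fold lower (4.38 against 26.8), and CDH1 stood at 0.88 against 1.27 on 1 UMI. Of 5 cardiac markers (155 against 0.377 CPM together), 4 had at least 20 UMIs in both groups together. All 4 were at least 4-fold higher, with MYL7 found in 30 and NKX2-5 in 17 of 63 cells.

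A large share of the collagen UMIs sat in these few cells. The 63 cells held 8106 of the 22435 collagen UMIs, 36.1%, which is 129 collagen UMIs per cell against 1.82 per blood cell. The 3 genes that chose the cells made up 47.1% of these 8106 UMIs and were capped in blood cells, so these values were partly set by the choice. A median of 13 different collagen genes was detected per cell, from 9 to 18. Among the genes with at least 20 UMIs in both groups together, 17 of 27 collagens that did not choose the cells were at least 4-fold higher in collagen-rich cells (63.0%), where the same held for 8.48% of all 16518 genes. COL12A1 and COL25A1 reached the 20 UMIs only through the collagen-rich cells. With 20 UMIs in blood cells alone, the count was 15 of 25, beside 7.67% of 16360 genes. With the 3 that chose the cells it was 20 of 30. Of the 30, 0 were at least 4-fold lower, where 2.49% of all genes were, and 10 were past neither limit. The median log2 ratio, with 1 CPM added to each level, was 3.43 over the 30 collagens and -0.21 over all genes. The 30 include the 3 that chose the cells as well as COL12A1 and COL25A1, so this median was partly set by the choice and is a description.

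**Figure D1:**
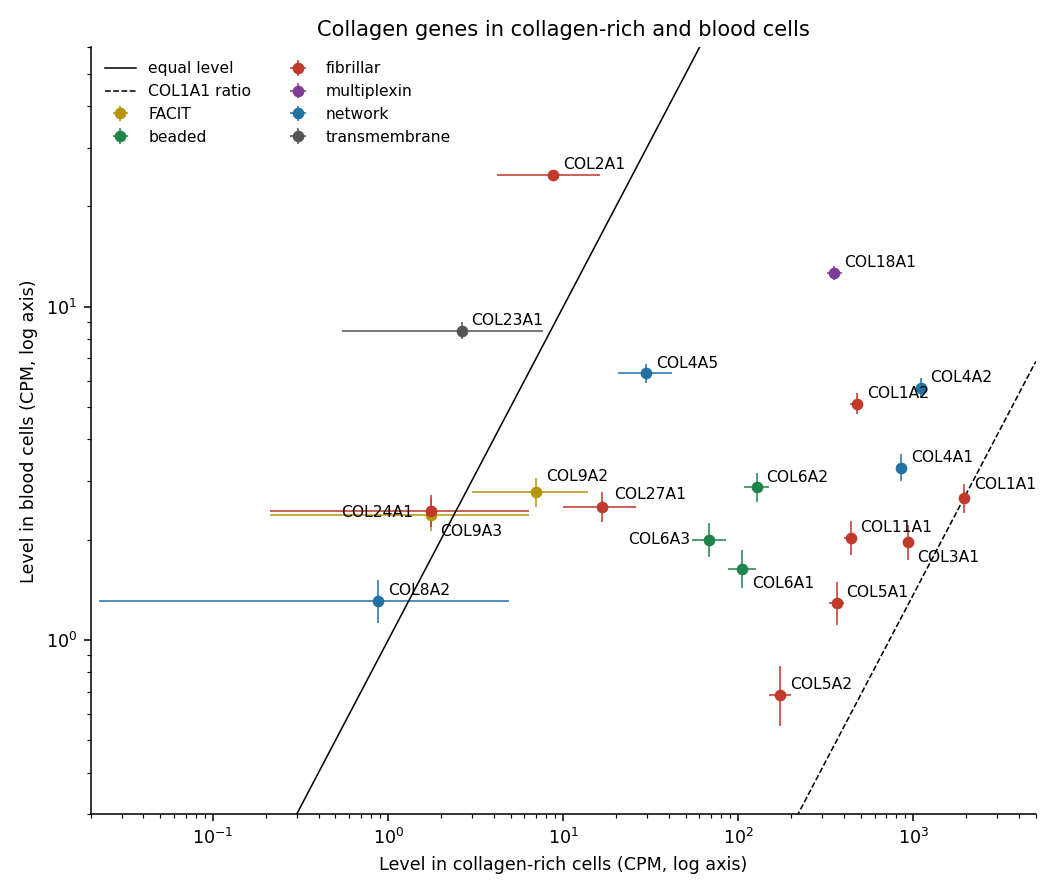
Level of the 20 collagen genes with at least 100 UMIs, in 63 collagen-rich cells (horizontal) and 7399 blood cells (vertical), both in CPM on log axes, with 95% Poisson intervals and colors for the structural class. The solid line marks equal levels and the dashed line the blood level at the ratio of COL1A1, 1.37 per 1000; COL1A1 at 1943 and 2.66 lies on the dashed line, and COL2A1 at 8.76 and 24.8 lies above the solid line.

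The 3 chains that chose the collagen-rich cells come first. COL1A1 (chr17:48261462-48278993, hg19), the main chain of type I collagen, had 2217 UMIs in 63 of 63 cells, with 5 as its lowest, 29 as its median and 134 as its highest count, and a level of 1943 CPM (1863 to 2026). COL3A1 (chr2:189839099-189877472), the chain of type III in soft tissue, was also present in all 63 cells, with 1061 UMIs, a median of 12 and a highest count of 61. COL1A2 (chr7:94024207-94060539), the second chain of type I, was found in 58 of 63 cells, with 543 UMIs and a median of 6. Its highest count of 78 in 1 cell stood far from the others. The ratio of COL1A1 to COL1A2 UMIs was 4.08 (3.72 to 4.49).

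The minor fibrillar chains accompanied them. COL11A1 (chr1:103342023-103574428), a type XI chain known from cartilage that sets fiber width, stood at 437 CPM (400 to 477) and was found in 60 of 63 cells. COL5A1, the main chain of type V and a core of type I fibers, stood at 364 (330 to 400) and was found in 62 cells. COL5A2, its partner chain, stood at 174 (150 to 199) and was found in 59 cells. The chain ratio of COL5A1 to COL5A2 was 2.10 (1.77 to 2.50). In contrast, COL2A1, the main cartilage chain, had 10 UMIs in 7 of 63 cells (8.76 CPM, 4.20 to 16.1), and of the 6 cartilage markers only HAPLN1 (242 UMIs), SOX9 (11 UMIs) and MATN1 (1 UMI) were seen, with ACAN and COMP at 0.

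Type IV collagen was present in every collagen-rich cell. COL4A2 (chr13:110958159-111165556, plus strand) stood at 1100 CPM (1040 to 1162) and COL4A1 (chr13:110801310-110959504, minus strand) at 849 (797 to 904), and each was found in 63 of 63 cells, with medians of 17 and 13 UMIs. The ratio of COL4A1 to COL4A2 was 0.772 (0.709 to 0.840). COL4A5, the X-linked type IV chain, was lower at 29.8 CPM (20.6 to 41.6), in 18 of 63 cells. Together COL4A1 and COL4A2 made up 27.4% of the collagen UMIs of these cells, and COL1A1, COL1A2 and COL3A1 made up 47.1%. Of 11 laminins, nidogens and other partners that share basement membranes with type IV, 9 had enough UMIs and 8 of these were at least 4-fold higher than in blood cells, with LAMB1 at 73.6 CPM against 0.43.

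The COL4A1 and COL4A2 genes start beside each other and run in opposite directions. The stretch between their RefSeq starts is shown because both genes are read from it and each was found in all 63 collagen-rich cells. It lies at chr13:110307158-110307283 on GRCh38.p14, spans 126 bases and is written on the strand of COL4A2. Matches to CCAAT and GGGCGG, searched on both strands, are in capitals.
COL4A1-COL4A2: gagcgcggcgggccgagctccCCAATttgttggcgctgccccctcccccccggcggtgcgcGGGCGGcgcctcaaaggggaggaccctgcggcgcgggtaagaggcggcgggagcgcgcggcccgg
CCAAT stood in 32.01% and GGGCGG in 42.6% of all 35116 upstream sequences of 250 bases in the same RefSeq table. The hg19 gene bounds given above differ from these starts, and there the 5′ parts of both genes overlap on opposite strands.

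Collagens of other types were also present. COL18A1 (chr21:46825080-46933634), a basement membrane collagen whose end is released as endostatin, stood at 354 CPM (320 to 390) and was found in 60 of 63 cells. The type VI chains COL6A2, COL6A1 and COL6A3 stood at 127 (107 to 150), 105 (87.2 to 126) and 68.4 (54.0 to 85.3) and were found in 54, 43 and 34 cells. COL27A1, a fibrillar chain of cartilage, stood at 16.7 CPM (10.0 to 26.0) with 19 UMIs. COL9A2 had 8 UMIs, COL23A1 3, COL9A3 and COL24A1 2 each and COL8A2 1, all levels at which the intervals were wider than the value. The 21 collagens with 1 to 99 UMIs in all kept cells had 0 to 58 UMIs here and 1 to 57 in blood cells, with the fiber-associated COL12A1 highest (58 UMIs in 29 cells, against 7 UMIs in 7399 blood cells).

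**Figure D2:**
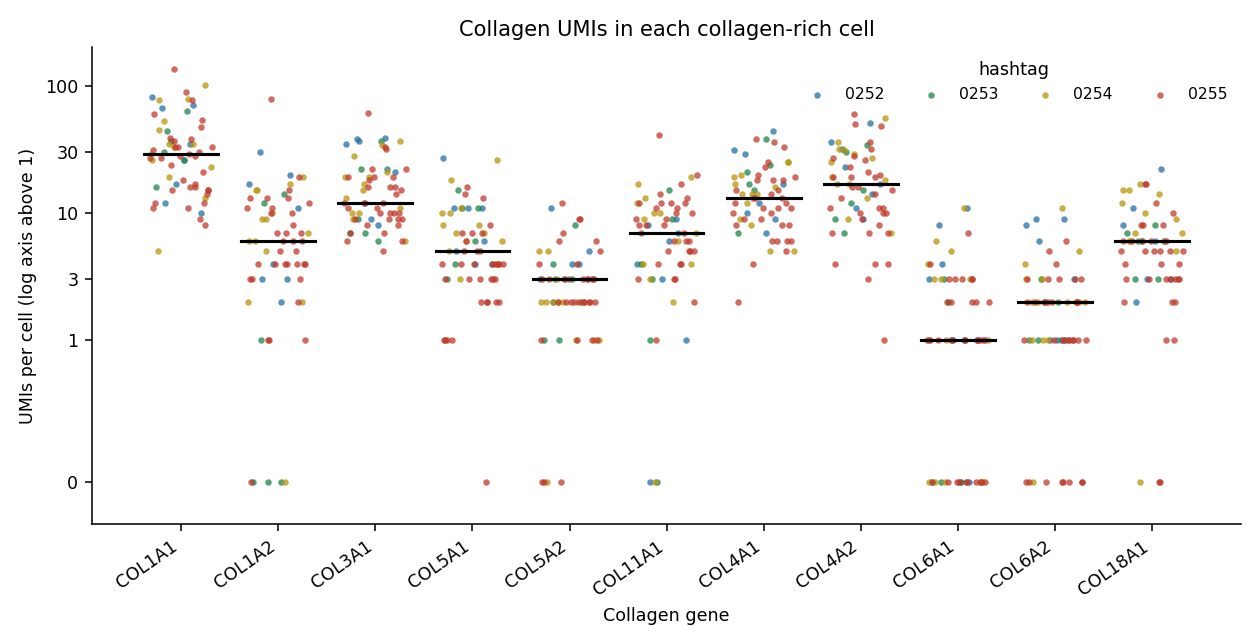
UMIs of 11 collagen genes in each of the 63 collagen-rich cells (vertical, log axis above 1), 1 point a cell, colored by hashtag, with a bar at the median. COL1A1, COL3A1, COL4A1 and COL4A2 were above 0 in 63 of 63 cells and COL6A1 in 43.

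Among the 63 cells, rank correlations of per-cell levels were mostly low, and the values below share library and depth and are a description. COL1A1, COL1A2 and COL3A1 chose the cells, which itself shapes their correlations. Low counts, such as medians of 1 UMI for COL6A1 and 3 for COL5A2, weaken rho, so low values do not show that genes are unrelated. Spearman's rho of per-cell levels was 0.39 for COL1A1 and COL3A1, 0.42 for COL3A1 and COL1A2 and 0.43 for COL3A1 and COL5A2. Over the 55 pairs of the 11 collagens it ran from -0.18 to 0.43 with a median of 0.20. Over the 44 pairs of a collagen with FN1 (fibronectin), SPARC, LUM or POSTN it ran from -0.11 to 0.61 with a median of 0.21, and COL1A1 with SPARC, a collagen-binding glycoprotein, and COL3A1 with FN1 gave the 0.61. COL1A1 and the contractile gene TAGLN gave -0.14, and COL6A1 and KRT18 gave -0.41. The per-cell level of COL1A1 ran from 227 to 5427 CPM with a median of 1762, and that of ACTC1 from 0 to 23426.

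Part of the collagen-making enzymes were higher along with the chains. Of 18 hydroxylation and folding genes found, 10 were at least 4-fold higher in collagen-rich than in blood cells, beside 8.48% of all genes, led by SERPINH1, the collagen chaperone HSP47, at 650 against 55.3 CPM. The prolyl hydroxylase subunit P4HB (344 against 204) and the isomerase PPIB (949 against 618) stayed under the 4-fold limit. Of 11 processing and crosslinking genes with enough UMIs, 8 were at least 4-fold higher, with the lysyl oxidases LOXL2 (151 against 0.43) and LOX (139 against 2.63) and the procollagen enhancer PCOLCE (124 against 2.11). Of 10 matrix partner genes with enough UMIs, 9 were higher, with SPARC at 2050 against 20.7 and TGFBI at 1003 against 3.67. Collagen receptors divided: 5 of 12 were higher, among them the integrin chains ITGA1 (125 against 0.32) and ITGA11 (53.5 against 0.17), and the leukocyte inhibitory receptor LAIR1 was at least 4-fold lower (6.13 against 34.6). Among the genes of collagen degradation or its inhibition with enough UMIs, 3 of 8 were higher. These were the gelatinase MMP2 (290 against 8.01), MMP14 (78.0 against 10.1) and the inhibitor TIMP1 (897 against 201).

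The level of these collagens in blood cells was low but not 0. In droplet libraries RNA that drifts free enters every droplet, and 1 source of it keeps its genes in 1 ratio, so the blood level was divided by the collagen-rich level for each gene. For COL1A1 the ratio was 1.37 per 1000 (1.22 to 1.53), with 374 UMIs in 288 of 7399 blood cells (3.89%), and for COL3A1 it was 2.11 (1.84 to 2.41). Stromal genes that are no collagens ranged widely. Of the 8 contractile markers, ACTC1, TAGLN and ACTA2 gave 1.25, 1.44 and 2.07 and the other 5 gave 5.01 (CNN1) to 512 (MYH11, on 1 UMI in collagen-rich cells), and of the mesenchyme markers POSTN gave 1.94, FN1 3.32, LUM 3.92, THY1 46.8 and PDGFRB 123. The other fibrillar and type IV chains were somewhat higher, at 3.54 (2.96 to 4.23) for COL5A1, 3.87 (3.46 to 4.33) for COL4A1, 3.94 (3.05 to 5.05) for COL5A2, 4.62 (3.98 to 5.36) for COL11A1 and 5.18 (4.73 to 5.66) for COL4A2. Of the 13 collagens with at least 50 UMIs in collagen-rich cells, 7 were at or under 5 per 1000.

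With blood cells of at most 5 UMIs of the 3 collagens (7365 cells), a limit that itself lowers these 3 genes, the ratio of COL1A1 was 1.05 per 1000 (0.923 to 1.19) and that of COL3A1 1.58 (1.35 to 1.83). COL4A2, which the limit did not use, had a ratio of 4.50 (4.09 to 4.94) there. With blood cells ordered by depth and divided into 4 groups of equal size, the mean COL1A1 count per cell was 0.0643, 0.0400, 0.0341 and 0.0638 from the shallowest to the deepest group, while all UMIs together differed 2.40-fold between the ends. From the shallowest to the deepest group COL2A1 rose 4.15-fold, COL23A1 2.35-fold and COL18A1 1.74-fold. COL4A2, COL4A1, COL5A1 and COL11A1 rose 2.26-fold, 1.99-fold, 1.79-fold and 1.78-fold. COL1A2, COL6A1 and TAGLN were lower in the deepest group, at 0.70, 0.63 and 0.80 times the shallowest. The kinds of cells were not matched between the depth groups, so depth and cell kind cannot be told apart here.

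Another group of collagens stood far above that ratio. COL1A2 stood at 10.8 per 1000 (9.61 to 12.0), COL6A1 at 15.6 (12.4 to 19.6), COL6A2 at 22.6 (18.6 to 27.5), COL6A3 at 29.3 (22.7 to 38.1) and COL18A1 at 35.6 (31.98 to 39.8). COL27A1, COL4A5 and COL9A2 stood at 151, 212 and 396 per 1000. For COL2A1, COL23A1, COL24A1, COL9A3 and COL8A2 the blood level was above the collagen-rich level, with the last 4 resting on 1 to 3 UMIs in collagen-rich cells and only the intervals of COL2A1 (1536 to 5904 per 1000) and COL23A1 (1102 to 15671) staying above 1000. COL1A1 helped to choose both groups, which raises its collagen-rich level and caps its blood level, so its ratio was partly set by that choice. As arithmetic at the COL1A1 ratio only, the collagen-rich cells would account for 0.048% of the COL2A1 level of blood cells. The same gave 3.84% for COL18A1, 12.7% for COL1A2 and 64.9% for COL3A1. How much of a collagen in blood cells was free RNA was not tested.

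COL2A1 (chr12:48366750-48398337), known as the main chain of cartilage collagen, was the most abundant collagen of the blood cells. It had 3483 UMIs in 1473 of 7399 blood cells (19.9%), a level of 24.8 CPM (23.98 to 25.6), which was 25.9% of all their collagen UMIs. Of these cells, 761 had 1 UMI, 536 had 2 to 4, 143 had 5 to 9 and 33 had 10 or more, up to 21. COL18A1 followed with 1773 UMIs and 12.6 CPM (12.0 to 13.2), and COL23A1 (chr5:177664477-178017394), a membrane-spanning collagen, with 1192 UMIs and 8.48 (8.01 to 8.98). COL4A5 stood at 6.31 (5.90 to 6.74), COL4A2 at 5.69 (5.31 to 6.10) and COL1A2 at 5.12 (4.75 to 5.51). The cartilage list as a whole was near 0 in blood cells, at 1.83 CPM for 6 genes together, with ACAN at 5 UMIs and COMP at 2.

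To place these genes, blood cells were sorted by the UMIs of small marker lists that hold no collagen, with thresholds chosen after the counts had been seen. C1Q cells had at least 10 UMIs of C1QA, C1QB and C1QC (313 cells), HLA class II cells at least 20 of 4 class II genes (780), azurophil granule cells at least 50 of MPO, ELANE, AZU1 and PRTN3 (882), calprotectin cells at least 20 of S100A8 and S100A9 (189), eosinophil granule cells at least 20 of EPX, PRG2 and CLC (183), mast/basophil cells at least 5 of TPSAB1, MS4A2 and HDC (416), globin cells at least 50 of the 5 globins HBE1, HBZ, HBG1, HBG2 and HBD (281) and platelet cells at least 20 of PF4, PPBP, GP9 and GP1BB (54). Of the rest, 1739 had at least 5 UMIs of the progenitor markers SPINK2 and CD34, and 2562 passed no list. A cell that passed several lists, as 1260 did, was put where it exceeded the threshold most. From 4 to 123 cells of a lineage list lay within 1.2 times its threshold, with the 123 in the mast/basophil list. In blood cells HDC had 7398 UMIs, TPSAB1 166 and MS4A2 37, so the mast/basophil list rested mainly on HDC. Its name is that of the list only. A collagen was counted for a list where its level was at least 2-fold that of all other blood cells with at least 10 UMIs, among the 28 collagens with at least 20 UMIs in blood cells.

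Globin and platelet cells shared a set of collagens. In globin cells 5 of 28 collagens were counted (17.9%, against 5.13% of 16360 genes) and in platelet cells 5 of 28 (17.9%, against 4.82%). COL2A1 stood at 161 CPM (139 to 185) in platelet cells and 122 (113 to 131) in globin cells, followed by mast/basophil cells at 44.5 (40.3 to 49.1), cells on no list at 26.0 (24.6 to 27.6) and SPINK2/CD34 cells at 24.2 (22.6 to 25.8). The last 2 of these did not differ beyond their intervals. The other 5 lists stood between 0.88 and 2.83. A COL2A1 UMI was found in 66.7% of platelet cells and 63.3% of globin cells, against 0.897% of HLA class II cells, where the median depth was 14930 UMIs against 21095 and 19750. With each cell thinned to 5000 UMIs the shares were 37.04%, 37.01% and 0.129%. By level, the platelet list was 6.80-fold (5.84 to 7.88) and the globin list 5.91-fold (5.43 to 6.42) above all other blood cells. Which of the 2 was higher depended on the hashtags. Without 0252 the platelet list was at 4.59-fold and the globin list at 5.79-fold, and without 0253 they were at 8.47-fold and 5.27-fold.

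COL18A1 and COL24A1 followed the same cells. COL18A1 stood at 58.1 CPM (52.1 to 64.7) in globin cells, 57.8 (44.9 to 73.3) in platelet cells and 22.2 (19.3 to 25.5) in mast/basophil cells, against 4.69 to 13.2 on the other lists. COL24A1 (chr1:86194916-86622626), a minor fibrillar chain known from bone and cornea, stood at 42.5 (31.6 to 56.1) in platelet cells and 14.3 (11.4 to 17.7) in globin cells. It stood between 0.40 and 3.26 elsewhere. The platelet and globin intervals, which cover counting error only, did not overlap. In platelet cells 53.7% carried a COL24A1 UMI, against 0.794% of azurophil granule cells. With each cell thinned as for COL2A1, the share was 14.8% (6.62 to 27.1%) in platelet cells and 8.19% (5.26 to 12.0%) in globin cells. These intervals overlapped, so the thinned shares did not separate the platelet and globin lists. COL1A1 showed no such pattern, with 0 UMIs in the 54 platelet cells (interval up to 3.14 CPM) and 1.55 CPM in globin cells. The contractile genes divided. TAGLN stood at 2.55 CPM in platelet cells and 2.07 in globin cells against 7.72 in cells on no list. ACTC1 stood at 5.95 (on 7 UMIs) and 2.59 against 4.58. Whether stromal RNA added to the collagens of these cells was not tested.

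The 250 bases before the farthest upstream RefSeq start of COL24A1 are shown, chr1:86156773-86157022 on the minus strand of GRCh38.p14. They were chosen because this gene had the highest fold of the collagens in platelet cells. Beside them are those of COL23A1, chr5:178590394-178590643, also on the minus strand. COL23A1 was low in platelet cells, on few UMIs, and was not counted there. Capitals mark GGGCGG on either strand. COL24A1 has another listed start whose upstream sequence holds GGGCGG.
COL24A1: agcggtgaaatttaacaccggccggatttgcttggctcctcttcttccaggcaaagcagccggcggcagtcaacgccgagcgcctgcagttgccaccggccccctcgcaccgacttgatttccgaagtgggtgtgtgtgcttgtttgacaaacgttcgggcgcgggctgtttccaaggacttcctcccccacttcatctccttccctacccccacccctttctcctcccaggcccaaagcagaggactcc
COL23A1: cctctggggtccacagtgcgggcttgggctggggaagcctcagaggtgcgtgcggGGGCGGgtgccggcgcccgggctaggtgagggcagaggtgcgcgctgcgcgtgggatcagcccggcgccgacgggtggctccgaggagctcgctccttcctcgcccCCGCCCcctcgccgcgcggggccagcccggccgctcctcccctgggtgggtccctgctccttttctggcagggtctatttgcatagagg
The GATA forms AGATAA and TGATAA, which stood in 9.17% and 6.66% of all 35116 sequences, and the letters CCAAT and TATAAA (10.7%) had no match in either window. Over the 43 upstream sequences listed for 31 of the collagen genes, AGATAA was found in 4 and TGATAA in 2. No such sequence is shown for COL1A1, COL1A2, COL2A1, COL3A1, COL5A2, COL6A1 or COL9A3.

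Cells with at least 5 COL2A1 UMIs numbered 176 and were chosen by that gene, so the genes leading them are a description. They were led by THBS1 (315 against 26.5 CPM in other blood cells), HBD (1354 against 129), TUBB1 (87.5 against 7.15) and GP9 (177 against 23.4), genes of megakaryocytes and red cells, with 57 globin cells, 15 platelet cells, 24 mast/basophil cells, 33 SPINK2/CD34 cells and 46 cells on no list. The 49 cells with at least 2 COL24A1 UMIs were led by PPBP (1670 against 42.4), HBE1 (804 against 46.9) and TUBB1 (182 against 8.23).

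Type IV chains were also high in platelet cells. COL4A2 stood at 57.0 CPM (44.2 to 72.4) and COL4A1 at 22.1 (14.4 to 32.4), 10.8-fold (8.31 to 13.9) and 7.07-fold (4.56 to 10.5) above other blood cells, and 11 cells carried both. Their ratio was 0.388 (0.237 to 0.619), lower than the 0.772 of the collagen-rich cells. It rested on 26 COL4A1 UMIs in 13 cells and 67 COL4A2 UMIs in 21 cells, and its interval covers counting error only. A ratio under that of the collagen-rich cells was not particular to platelet cells, as it was 0.578 (0.514 to 0.648) over all blood cells. It was 0.463 in SPINK2/CD34 cells, 0.484 in globin cells, 0.609 in cells on no list and 1.02 in C1Q cells. When cells that passed several lists were left out, COL4A2 in platelet cells was 2.28-fold above other blood cells with an interval of 0.618 to 5.86. In 8 of the 54 platelet cells at least 20 contractile UMIs were present, and without such cells in any list the COL4A2 ratio was 13.97. The 46 blood cells with at least 4 UMIs of COL4A1 and COL4A2 were led by IGF2 (369 against 1.78 CPM), PPBP (2024 against 40.9) and TAGLN (278 against 3.52). COL4A2 in globin cells (2.02-fold) fell to 1.74-fold without its highest cell.

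C1Q cells carried COL1A2 with little of its partner chain. COL1A2 stood at 49.8 CPM (43.5 to 56.6) in C1Q cells, 13.8-fold (11.7 to 16.2) above other blood cells, and then at 8.71 (7.15 to 10.5) in HLA class II cells, 7.66 (3.50 to 14.5) in platelet cells, 6.53 (3.99 to 10.1) in calprotectin cells and 5.73 in cells on no list. The values from HLA class II to calprotectin cells overlapped. It was at 2.41 or lower on the other lists. COL1A1 in C1Q cells stood at 4.35 (2.65 to 6.71) and COL3A1 at 4.78, so that the ratio of COL1A1 to COL1A2 UMIs was 0.087 (0.052 to 0.138) against 4.08 in collagen-rich cells. A COL1A2 UMI was found in 88 of 313 C1Q cells (28.1%), and in 1.92% of mast/basophil cells. With cells thinned to 5000 UMIs the C1Q share was 15.4% (11.6 to 19.9%) and that of mast/basophil cells 0 of 416, with an interval up to 0.883%.

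The type VI chains were raised in the same C1Q cells. COL6A1 stood at 14.3 CPM (11.1 to 18.2) and 11.9-fold (8.79 to 15.9) above other blood cells, COL6A2 at 13.7 and 5.47-fold, and COL6A3 at 7.61 and 4.20-fold. COL6A1 and COL6A2 were found together in 17 of 313 cells, and their ratio of 1.05 (0.730 to 1.504) overlapped the 0.828 (0.644 to 1.06) of collagen-rich cells. In all, 8 of 28 collagens were counted for C1Q cells (28.6%, against 8.15% of all genes), and 5 of the 8 stayed at 2-fold without their highest cell. The counts of COL3A1, COL5A1 and COL4A2 each rested on their highest cell, of 10, 7 and 25 UMIs, and the ratios were 1.40, 1.06 and 1.32 without it. COL4A1 fell from 4.32-fold to 2.36-fold without a cell of 27 UMIs and to 2.58-fold without hashtag 0254. C1Q cells had a median of 3 contractile UMIs, as blood cells did as a whole, and 5 of 313 had at least 20. TAGLN stood at 8.26 CPM in C1Q cells, the highest of the lists, against 7.72 in cells on no list. ACTC1 stood at 5.43 against 4.58. Whether stromal RNA added to the collagens of C1Q cells was not tested.

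Cells with at least 3 COL1A2 UMIs and at most 1 of COL1A1 and COL3A1 together numbered 74 of 7399 and held 348 COL1A2 UMIs beside 8 of the other genes. They comprised 31 C1Q cells (9.90% of that list), 10 HLA class II cells and 30 cells on no list. By description they were led by SPP1 (osteopontin, 7326 against 209 CPM in other blood cells), NMRK2, A2M, TREM2 (436 against 24.7) and APOE (869 against 60.6), of which TREM2 and APOE are known from tissue macrophages. Of 12 collagen receptors, 2 were at least 2-fold higher in C1Q cells than in other blood cells, the mannose receptor MRC1, which takes up collagen (43.3-fold), and OSCAR (5.2-fold). Of 11 genes of collagen degradation or its inhibition 3 were, beside the 8.15% of all genes. These were MMP9 (8.5-fold), MMP14 (5.1-fold) and the inhibitor TIMP2 (2.9-fold).

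COL23A1 was highest in azurophil granule and mast/basophil cells. It stood at 18.03 CPM (16.1 to 20.1) in azurophil granule cells and 17.5 (14.9 to 20.4) in mast/basophil cells, which did not differ beyond their intervals, then at 8.34 (5.58 to 12.0) in eosinophil granule cells, 8.28 in cells on no list and 8.11 in globin cells, at 5.93 in SPINK2/CD34 cells, at 3.92 in calprotectin cells and between 0.85 and 2.61 in the other lists. The azurophil list was 2.53-fold (2.22 to 2.88) and the mast/basophil list 2.22-fold (1.87 to 2.63) above other blood cells, and the latter was 1.92-fold without hashtag 0254. A COL23A1 UMI was found in 27.7% of azurophil granule cells and 2.05% of HLA class II cells, and no cell held more than 4. The 179 cells with at least 2 COL23A1 UMIs were led by PRTN3 (3802 against 981) and AZU1 (347 against 99.3).

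Smaller patterns completed the granule and antigen-presenting cells. Azurophil granule cells also carried COL27A1 (4.64 CPM, 2.10-fold) and the hemidesmosome collagen COL17A1 (1.14, 11.7-fold, on 20 UMIs), so that 3 of 28 collagens were counted there (10.7%, against 3.81% of all genes). COL17A1 had 32 UMIs in blood cells and reached the minimum of 20 only through these cells. COL9A3, a chain of the cartilage collagen IX, stood at 6.04 (3.74 to 9.23) in eosinophil granule cells, the 1 collagen counted there (3.57%, against 2.59%), and at 4.73 in mast/basophil cells, where its 2.14-fold ratio became 1.99-fold without its highest cell. With COL23A1 and the type VI chain COL6A5 (1.21 CPM on 11 UMIs), 3 of 28 were counted in mast/basophil cells (10.7%, against 2.02%). COL6A5 was counted in globin cells too, at 1.90 on 11 UMIs. COL8A2, a short-chain network collagen known from the cornea, was the 1 collagen counted in HLA class II cells (4.15, 3.10 to 5.45, 4.03-fold, 3.57% against 6.63%) and in calprotectin cells (3.92, 2.03 to 6.85, 3.13-fold, 3.57% against 5.78%), shares under those of all genes.

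COL4A5 and COL9A2 were spread more evenly. COL4A5 ran from 2.61 CPM (1.35 to 4.56) in C1Q cells to 10.2 (8.25 to 12.5) in mast/basophil cells, with no cell above 3 UMIs, and COL9A2 from 1.72 (0.827 to 3.17) in globin cells to 5.00 (3.17 to 7.50) in C1Q cells, and neither was counted for a list. SPINK2/CD34 cells had 0 of 28 collagens counted (against 1.78% of all genes). Cells on no list had COL11A1 (3.19, 2.17-fold) and COL5A1 (1.97, 2.04-fold), which is 7.14% against 1.52% of all genes, and COL5A1 fell to 1.97-fold without its highest cell. The 41 blood cells with at least 2 COL11A1 UMIs were led by TAGLN (278 against 3.62 CPM) and ACTC1 (159 against 2.38), 21 of them on no list.

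**Figure D3:**
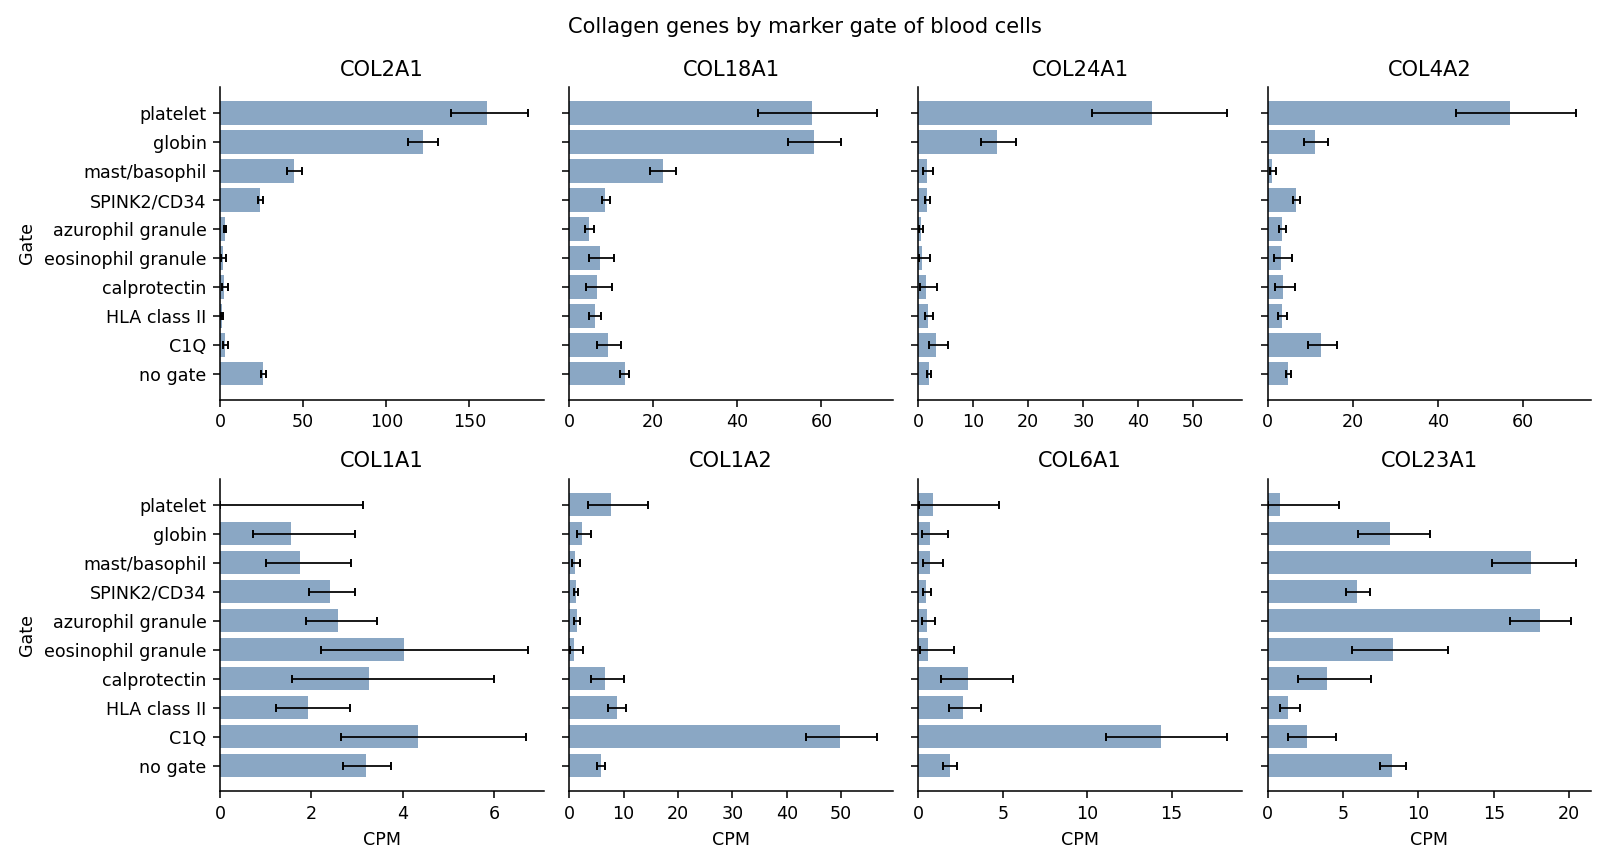
Level of 8 collagen genes (horizontal, CPM, a separate scale for each gene) in blood cells by marker list (vertical, drawn as gates, with no gate for cells on no list), with bars from 0 and 95% Poisson intervals. COL2A1, COL18A1, COL24A1 and COL4A2 were highest in platelet or globin cells, COL1A2 and COL6A1 in C1Q cells and COL23A1 in azurophil granule and mast/basophil cells, while COL1A1 stayed at or under 4.35.

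Enzymes of collagen maturation were uneven over the same lists. In globin and platelet cells the crosslinking enzyme LOX stood at 16.7 and 17.9 CPM (8.3-fold and 7.2-fold above other blood cells), the lysyl hydroxylase PLOD2 at 20.9 and 24.7 (3.5-fold and 3.8-fold) and LOXL3 at 22.4 and 31.5. The platelet collagen receptor GP6 stood at 27.2 CPM in platelet cells, 51.2-fold above other blood cells, and at 6.6 in globin cells. P4HB reached 489 CPM in azurophil granule cells (3.0-fold) and 505 in eosinophil granule cells (2.57-fold). In azurophil granule cells LOXL4 was 40.6-fold above other blood cells at 8.6. Of the 18 hydroxylation and folding genes, 0 to 3 were at least 2-fold higher in any list. Eosinophil granule cells had 3, beside 2.59% of all genes. Azurophil granule, globin and platelet cells had 2 each, beside 3.81%, 5.13% and 4.82% of all genes. The other lists had 0 or 1, beside 1.52 to 8.15% of all genes.

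The collagen-rich cells were unevenly spread over the hashtags. They were 8 of 2136 cells for 0252 (0.375%, 0.162 to 0.737%), 6 of 1996 for 0253 (0.301%, 0.110 to 0.653%), 14 of 1847 for 0254 (0.758%, 0.415 to 1.27%) and 35 of 1571 for 0255 (2.23%, 1.56 to 3.08%). The interval of 0255 lay above the other 3, which overlapped. The collagen-rich cells of 0255 were the shallowest, with a median of 13898 UMIs against 19037 to 23094. Within these cells COL1A1, which helped to choose them, stood at 1982, 1798, 1741 and 2090 CPM in hashtag order. COL11A1 stood at 235, 266, 352 and 590 and COL5A1 at 489, 416, 391.8 and 296. Each value came from 6 to 35 cells.

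In blood cells, 5 of 19 collagens with at least 100 UMIs had a highest hashtag at least 2-fold above the lowest (26.3%, against 6.05% of 13378 genes). COL2A1 stood at 35.2, 25.7, 17.8 and 17.1 CPM for 0252, 0253, 0254 and 0255, a ratio of 2.05 (1.85 to 2.28) from highest to lowest. The 0254 and 0255 values did not differ beyond their intervals. COL24A1 was also highest in 0252 and then 0253, at 3.66, 2.51, 1.602 and 1.62, a ratio of 2.28 (1.67 to 3.17) from 0252 to 0254. The hashtags also differed in their cells: the platelet list held 26, 21, 2 and 5 cells and the globin list 88, 100, 62 and 31. Within globin cells alone COL2A1 stood at 167, 144, 52.1 and 76.1 CPM, in SPINK2/CD34 cells at 33.3, 29.8, 16.4 and 15.7 and in cells on no list at 37.4, 26.3, 22.1 and 20.1, with 0252 the highest each time.

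COL1A2 and COL6A1 were highest in 0253. COL1A2 stood at 2.71, 8.67, 3.99 and 5.10 CPM in hashtag order, a ratio of 3.19 (2.56 to 4.002) from 0253 to 0252, and COL6A1 at 0.573, 2.93, 1.54 and 1.51, a ratio of 5.12 (3.25 to 8.41). Within C1Q cells COL1A2 stood at 24.4, 71.9, 55.4 and 46.9 and COL6A1 at 3.6, 26.1, 16.6 and 8.5, while the number of C1Q cells was 104, 92, 70 and 47. Of the 74 COL1A2 cells with at most 1 UMI of COL1A1 and COL3A1, 44 carried hashtag 0253 (2.23% of its blood cells, 1.63 to 2.98%), against 7, 11 and 12 of the others.

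COL11A1 was highest in blood cells of 0255, as it was in the collagen-rich cells of that hashtag. It stood at 1.05, 1.26, 2.21 and 4.24 CPM for 0252, 0253, 0254 and 0255, a ratio of 4.05 (2.83 to 5.91). Among blood cells of at most 5 UMIs of the 3 collagens it stood at 0.874, 1.03, 2.04 and 3.47. COL1A1 over all blood cells had 2.14, 2.59, 2.27 and 3.99, a ratio of 1.86 (1.39 to 2.50). Among blood cells of at most 5 UMIs of the 3 collagens, a limit that uses COL1A1 itself, it had 1.72, 2.35, 1.96 and 2.17. There 0253 was highest and the intervals overlapped. The other 13 collagens tested, among them COL18A1 (14.3, 12.9, 11.9 and 10.6), COL23A1, COL4A5 and COL4A2 (ratios of 1.14 to 1.35), stayed under 2-fold.

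**Figure D4:**
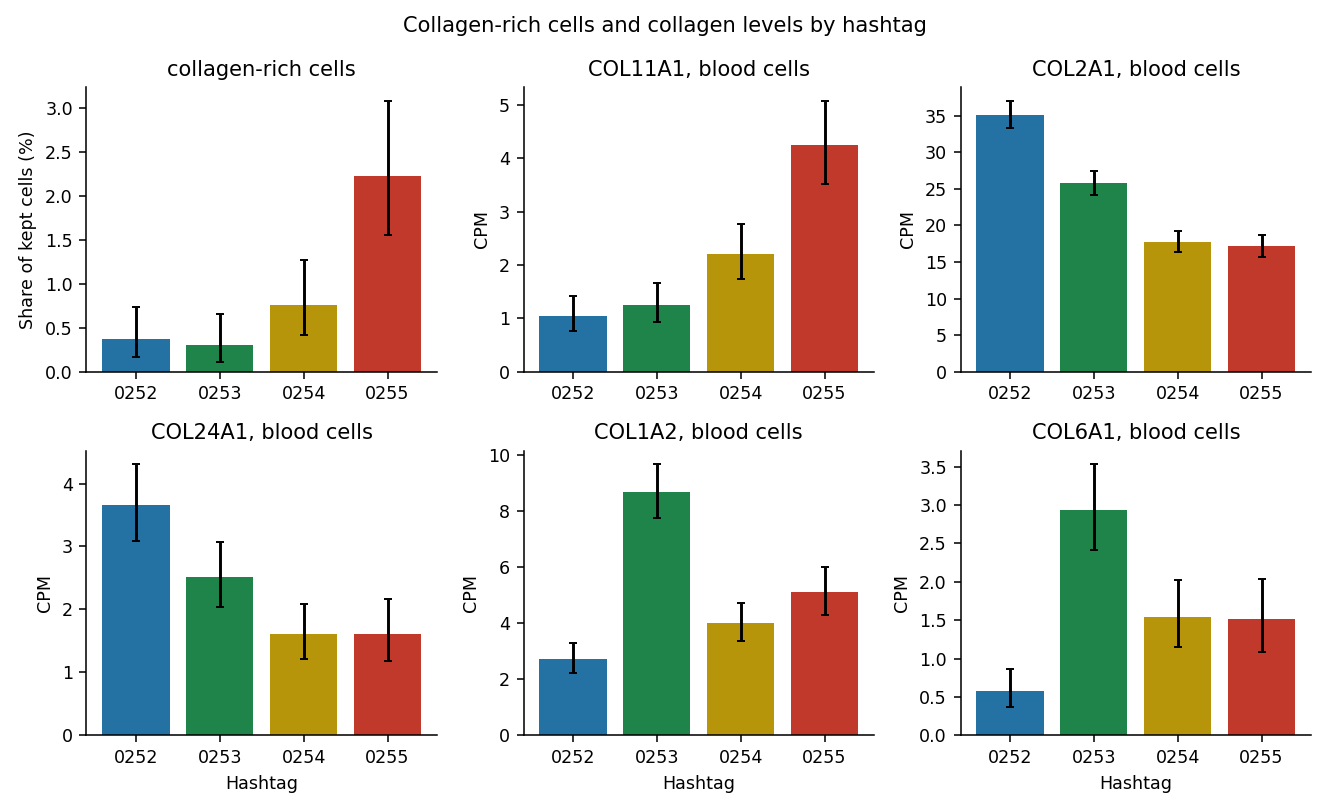
Share of collagen-rich cells (%, with 95% Clopper-Pearson intervals) and level of 5 collagen genes in blood cells (CPM, with 95% Poisson intervals) by hashtag, bars from 0. Collagen-rich cells and COL11A1 were highest for 0255, COL2A1 and COL24A1 for 0252 and COL1A2 and COL6A1 for 0253.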

How the data were processed

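The deposited counts are whole UMI counts per gene and barcode that the authors made with Cell Ranger 6.0.1 on hg19, without normalization. Per the labels, the second table holds hashtag calls for the same barcodes. All 4 coatings entered 1 library, so nothing was tested. UMIs were summed over cells and divided by their total (CPM), with exact intervals (Python 3.11.15, scipy 1.17.1). The collagens, gene lists and rules were chosen with earlier results of these data known, and list thresholds after the counts were seen. Named collagens are those with at least 100 UMIs in kept cells, and COL12A1, COL17A1 and COL6A5 were added after their values were seen. Fold limits were 4 for collagen-rich cells and 2 for lists and hashtags. Called hashtag doublets were left out, no other doublet caller was run and cells were not clustered. Alternatives covered thresholds, depth, the mitochondrial limit and hashtag calls. Counting and ratios were tested on simulated counts drawn from summed profiles. These held no spread between cells, so they could not show how the intervals do under such spread. Gene positions are from GENCODE on hg19, and sequences from RefSeq on GRCh38.p14.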

Additional observations from a re-analysis of the deposited data

Results flagged for a closer look

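Barcodes called as hashtag doublets and single-hashtag cells beyond a limit entered no comparison of the report (the cells over the UMI and gene limits entered 1 alternative), and both held collagen-rich barcodes above the limit that a count of 0 allows. Among the 1339 called doublets, 40 had at least 20 UMIs of COL1A1, COL1A2 and COL3A1, 2.99% (2.14 to 4.05%), and within the limits on UMIs, genes and mitochondrial share 9 of 834 did, 1.08% (0.495 to 2.04%). Among 938 single-hashtag cells beyond a limit, 37 did, 3.94% (2.79 to 5.40%), of which 31 were among the 397 cells over 36000 UMIs or 6000 genes, 7.81% (5.37 to 10.9%). Of the 1009 barcodes without a hashtag call 0 did, with an interval up to 0.365%.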

How the results depend on the processing

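Over 20 results and 145 alternative values, 0 ratios turned direction, 97 values stayed inside the counting interval of the reported value or, for the count, within 1.5 times of it, and 48 left it. The share of collagen-rich cells was 1.21% with a limit of 10 UMIs, 0.530% with 40, 0.254% with cells thinned to 5000 UMIs, 4.89% with a 10% mitochondrial limit (36 of 736 cells) and 1.18% without limits on UMIs or genes, and 0.468 to 1.03% when hashtags were left out in turn, with the lowest without 0255. The count of collagens at least 4-fold higher in collagen-rich cells ran from 18 to 21 over its alternatives, with 18 for genes of 20 UMIs in blood cells alone, which was added after the values were known. The COL1A1 ratio per 1000 was 1.05 with blood cells of at most 5 UMIs of the 3 collagens, 1.11 with 20 pan-blood UMIs, 1.87 without that minimum and 1.05 in blood cells under 20 contractile UMIs, the last chosen after the data were seen, and 1.29 to 1.48 when hashtags were left out. The COL2A1 ratio of globin cells was 4.98 with doubled thresholds, 6.91 without cells on several lists, 4.32 with the 10% mitochondrial limit (7 globin cells) and 6.46 as a mean over cells, and 5.27 to 6.55 when hashtags were left out. The COL1A2 ratio of C1Q cells was 11.2, 22.3 and 5.65 (28 C1Q cells) under the first 3 of these and 11.9 to 15.2 when hashtags were left out. The COL23A1 ratio of azurophil granule cells was 2.91 with doubled thresholds and 4.67 with the 10% limit, and 2.22 to 2.78 when hashtags were left out. The COL2A1 ratio of 0252 to 0255 was 2.98 with hashtag counts at least 1.5 times the smallest called (5423 cells). Beyond these, the 10% mitochondrial limit moved COL4A2 in platelet cells to 1.16-fold and COL2A1 there to 20.3-fold (4 platelet cells), COL18A1 in globin cells to 2.77-fold and COL23A1 in mast/basophil cells to 1.26-fold. The causes were not tested. No paired analysis was possible because there is 1 library and no result comes from a test.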
